A study of Mus musculus with 4 samples.

Results

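The colony-stimulating factor 1 (CSF1) receptor axis and its myeloid transcription factors were described here by 10 genes, out of 19937 genes measured on the arrays. They were 2 ligand genes (Csf1 and Il34), 4 receptor genes (Csf1r, Csf2ra, Csf2rb and Csf3r) and 4 transcription factor genes (Spi1, Irf8, Irf5 and Runx1). A member was taken where a probe set carried its gene symbol alone, and the brightest probe set would have been kept, but each of the 10 genes had a single such probe set. All 10 entered the comparison, since no filter on low values was applied.

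The samples were EGFP-positive cells sorted from gliomas of C57/Bl6 mice. Every tumour, in both groups, had been started by a retrovirus that expressed PDGF-B together with EGFP and was injected at embryonic day 14. Early-onset low-grade gliomas were represented by 2 pools, each holding cells of 2 tumours, and late-onset high-grade gliomas by 2 single tumours, called here pool 1, pool 2, tumour 1 and tumour 2. Onset and grade changed together, so their parts cannot be told apart, and a pool averages tumours where a late-onset sample does not. No normal brain or untreated sample was part of the comparison. Values were log2 probe set summaries, in which 1 unit is a doubling, and levels of different genes on this scale cannot be set against each other.

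CSF1R is a receptor tyrosine kinase on macrophages and microglia, which depend on its signal to survive. Its ligands CSF1 and IL34 share no clear sequence similarity but bind the same receptor, and in brain IL34 comes largely from neurons. The alpha chain encoded by Csf2ra joins the shared beta chain of Csf2rb to form the GM-CSF receptor, while Csf3r encodes the G-CSF receptor of neutrophils. Spi1 encodes the ETS-family factor PU.1, which switches on Csf1r and many other myeloid genes. IRF8 works beside it in macrophages and microglia, IRF5 drives inflammatory genes in macrophages, and RUNX1 is needed to form blood stem cells and acts in early myeloid progenitors.

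Csf1r and 6 other members fell in late-onset cells, Runx1 rose, and Il34 and Irf8 did not pass the test. The falls ran from 17.2-fold for Csf1r to 2.04-fold for Csf1, and Runx1 rose 1.80-fold. All 4 receptor genes fell, and of the 4 factor genes Spi1 and Irf5 fell. Over all genes, 8.12% were called lower in late-onset cells and 6.59% higher, at an adjusted p of 0.05 from limma. The median log2 fold change of the 10 members was -1.38, beside -0.01 over all genes. The groups did not overlap in 9 of the 10 members, against 58.9% of all genes, and Irf8 was the exception.

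**Figure D1:**
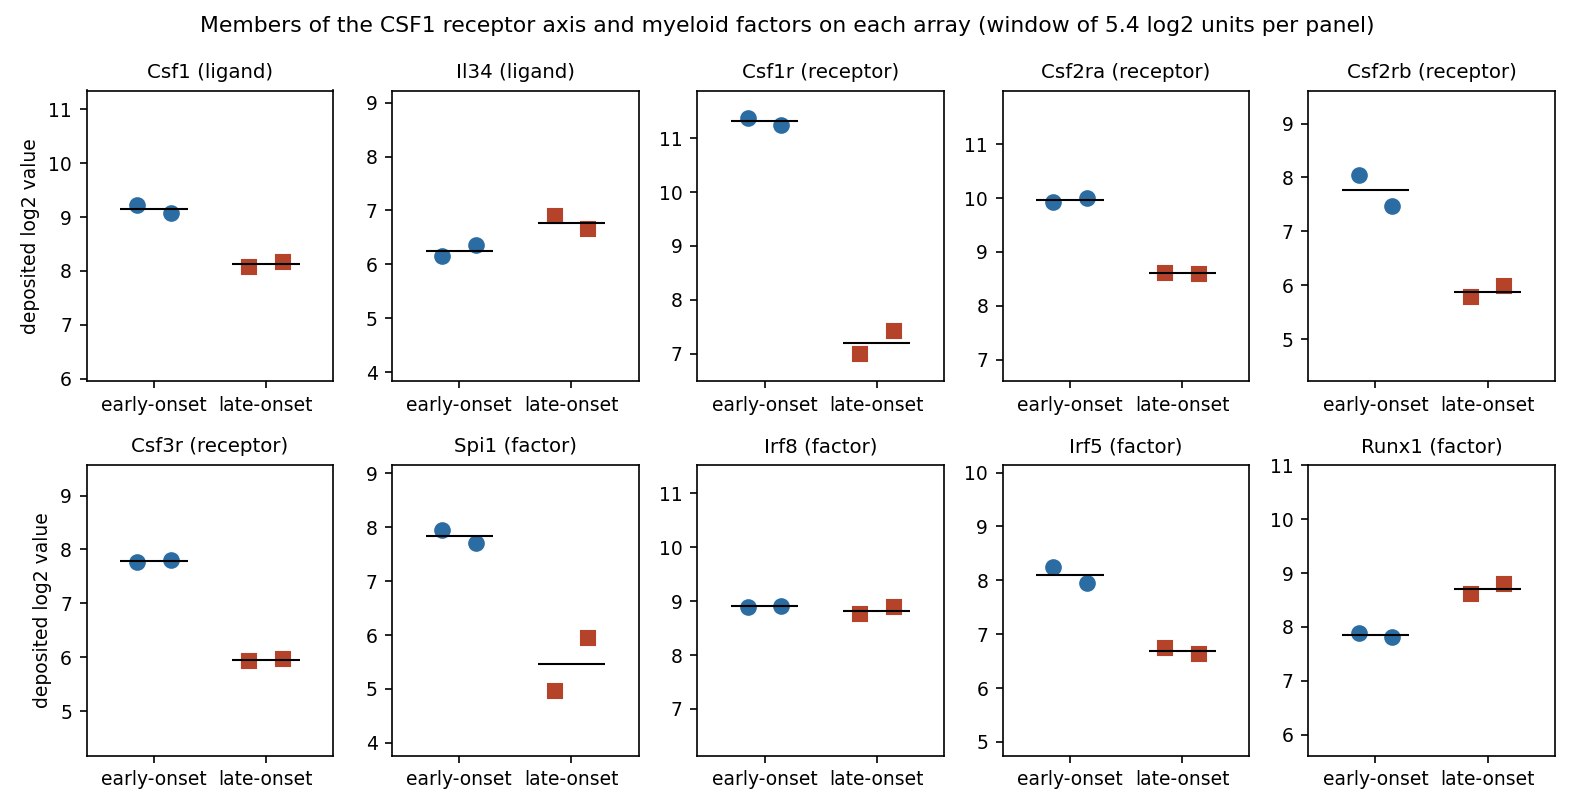
Deposited log2 value of each member on the 4 arrays: circles are the early-onset pools, squares the late-onset tumours, and bars the group means, with the same height of scale in every panel. Csf1r shows the widest gap between groups, Irf8 shows overlap, and Il34 and Runx1 lie higher in the tumours.

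Upstream sequences are shown for Csf2ra and Csf3r, which fell and held the PU-box core GAGGAA. Those of Runx1, which rose, and Irf8, which did not pass, are shown beside them. Csf1 and Irf5 also fell, but their windows held no core and are not shown. This core was looked for because Spi1, which fell with the receptors, encodes a factor that binds it. Any part of Spi1 in the other falls was not tested. The RefSeq promoter table (GRCm38.p6) held 6 of the 10 members, with 8 start sites, and Spi1, Il34, Csf2rb and Csf1r were not among them. Each sequence is the 250 bases before a start site, written 5′ to 3′ on the strand of the gene, with matches to the PU-box core on either strand in capitals.
Csf2ra, chr19:61228419-61228668, minus strand: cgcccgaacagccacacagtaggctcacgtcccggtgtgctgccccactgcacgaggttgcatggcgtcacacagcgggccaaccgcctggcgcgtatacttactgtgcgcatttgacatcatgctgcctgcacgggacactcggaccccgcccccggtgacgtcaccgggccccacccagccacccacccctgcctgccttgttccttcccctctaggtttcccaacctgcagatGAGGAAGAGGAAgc
Csf3r, chr4:126024409-126024658, plus strand: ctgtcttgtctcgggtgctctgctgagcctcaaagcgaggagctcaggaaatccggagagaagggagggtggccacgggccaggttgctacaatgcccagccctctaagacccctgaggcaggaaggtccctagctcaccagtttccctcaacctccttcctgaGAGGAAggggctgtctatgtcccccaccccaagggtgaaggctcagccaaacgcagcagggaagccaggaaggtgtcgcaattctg
Runx1, the start site inside the gene, chr16:92697330-92697579, minus strand: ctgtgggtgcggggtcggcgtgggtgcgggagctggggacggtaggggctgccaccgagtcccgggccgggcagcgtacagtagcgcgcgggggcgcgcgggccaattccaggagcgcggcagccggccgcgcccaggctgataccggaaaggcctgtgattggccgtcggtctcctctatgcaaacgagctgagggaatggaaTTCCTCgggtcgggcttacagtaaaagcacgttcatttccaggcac
Irf8, the first start site, chr8:120736108-120736357, plus strand: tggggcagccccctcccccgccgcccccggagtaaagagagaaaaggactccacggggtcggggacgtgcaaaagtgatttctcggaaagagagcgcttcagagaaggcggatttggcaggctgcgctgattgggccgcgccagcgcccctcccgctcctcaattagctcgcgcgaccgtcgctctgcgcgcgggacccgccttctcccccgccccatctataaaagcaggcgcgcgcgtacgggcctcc

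Csf2ra held 2 adjoining cores, beginning 14 and 8 bases before its start, and Csf3r held 1, beginning 86 bases before. The inner start site of Runx1 had 1 core on the opposite strand, at 46 bases before the start. The other members in the table (Csf1, Irf5 and Irf8) and the outer start of Runx1 had no such match in this window. Of all 32851 windows in the table, 23.3% held the core on either strand. The RUNX motif TGTGGT, which 14.0% of windows held, was in no member's window. The IRF motif AANNGAAA, held by 21.3% of windows, was found only upstream of the outer Runx1 start, at 2 places on the opposite strand. A match describes letters only, and binding was not measured.

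Csf1r fell furthest of the members. Its log2 value was 11.37 in pool 1 and 11.25 in pool 2, against 6.997 in tumour 1 and 7.412 in tumour 2. Both pools lay far above both tumours, and the tumours differed from each other more than the pools did. The log2 fold change was -4.11 (SE 0.16, 95% interval -4.52 to -3.69), with a limma adjusted p of 0.0013, and it was the ninth lowest of all genes. It remained between -4.31 and -3.90 when any 1 sample was left out.

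The GM-CSF receptor chains fell less than Csf1r. Csf2ra stood at 9.92 and 10.00 in the pools and at 8.61 and 8.60 in the tumours. The samples of each group differed by at most 0.08, and the groups stood well apart. Its change on the log2 scale was -1.35 (SE 0.10, adjusted p 0.00303). Csf2rb, the signalling beta chain, stood at 8.05 in pool 1, 7.47 in pool 2, 5.78 in tumour 1 and 5.98 in tumour 2. Its pools differed more from each other than its tumours did, and the groups did not overlap. This gave a log2 fold change of -1.88 (SE 0.21, adjusted p 0.00737).

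Csf2rb has a close paralogue on the same chromosome, Csf2rb2, which encodes the beta chain specific to the interleukin 3 receptor of mice. Csf2rb2 fell by 1.77 on the log2 scale (SE 0.21, adjusted p 0.00896), from 8.27 and 7.73 in the pools to 6.07 and 6.38 in the tumours. Of all other genes except predicted ones, it had the pattern nearest to that of Csf2rb, at a distance of 0.14 log2 units over the 4 arrays. Because the copies are so alike, how the signal divides between their probe sets is uncertain.

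Csf3r, the receptor gene best known from neutrophils, fell by 1.84 on the log2 scale (SE 0.10, adjusted p 0.0019). Its values were 7.76 and 7.81 in the pools and 5.94 and 5.96 in the tumours, so the samples of a group nearly coincided. Of 12 neutrophil markers, none was called in either direction by limma, and their median log2 fold change was -0.01. At an unadjusted p under 0.05 the count was also 0. Without tumour 1, 1 of them was called higher, Mmp9, named after its value was seen. The levels of the defining genes Ly6g and S100a8 were low on every array, Ly6g at 3.68 to 3.88 and S100a8 at 4.36 to 4.51. On every array 6 of the 12 markers lay below the lower quartile of all genes (5.52), where a fall is hard to see. The summed linear level of the 12 was 415 to 422 in the pools and 418 to 430 in the tumours.

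Of the ligand genes, Csf1 fell while Il34 lay higher without passing the test. Csf1 stood at 9.23 in pool 1 and 9.07 in pool 2, against 8.06 in tumour 1 and 8.17 in tumour 2. Both tumours lay below both pools by more than the spread within either group. Its log2 fold change was -1.03 (SE 0.11, adjusted p 0.00709), the smallest of the 7 falls.

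Il34 stood at 6.16 and 6.35 in the pools and at 6.89 and 6.65 in the tumours. The groups did not overlap, but the gap between the nearest samples was only 0.30. The log2 fold change was 0.52 (SE 0.13, 95% interval 0.18 to 0.86) and missed the threshold after adjustment (unadjusted p 0.0104, adjusted p 0.0617). Of 14 alternative settings, 3 called Il34 higher, all of them further scalings of the arrays. The limma adjusted p was 0.0436 after quantile normalization, 0.0429 after cyclic loess and 0.0414 after each array's median was subtracted. It moved the other way, to 0.124 under a replicate block and 0.126 in a fit of all probe sets. With 1 sample left out, the log2 fold change of Il34 was 0.40 to 0.64. Of 5 neuron markers, 4 were called lower in late-onset cells (median log2 fold change -0.81), with a summed linear level of 1600 to 1967 in the pools and 784 to 905 in the tumours. The number of neuron markers called lower was 1 without pool 1, 0 without pool 2, 3 without tumour 1 and 4 without tumour 2. Their part in the Il34 values was not tested.

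Spi1 fell most among the factor genes. It stood at 7.96 in pool 1 and 7.71 in pool 2, and at 4.96 in tumour 1 and 5.95 in tumour 2. The tumours differed by 0.98, the widest gap within a group of any member, yet both lay below both pools. Its log2 fold change was -2.38 (SE 0.33, 95% interval -3.20 to -1.55, adjusted p 0.0121), or 5.20-fold. The call was lost without pool 1 (-2.26, adjusted p 0.068) and without pool 2 (-2.50, 0.0597). Without tumour 1 the log2 fold change was -1.89 and without tumour 2 it was -2.87, and both passed.

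Irf5 stood at 8.26 and 7.94 in the pools and at 6.74 and 6.63 in the tumours. All late-onset values lay below all early-onset ones, and the log2 fold change was -1.41 (SE 0.14, adjusted p 0.00566). Irf8, by contrast, stood at 8.89 and 8.91 in the pools and at 8.75 and 8.89 in the tumours. Tumour 2 matched the pools, and tumour 1 lay slightly below them. For Irf8 the log2 fold change was -0.08 (95% interval -0.34 to 0.18, adjusted p 0.679), an interval that leaves out a fall as large as that of any of the 7 members called lower. Whether Irf8 and those 7 differ in their change was not tested beyond these intervals.

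Runx1 was the member called higher. It stood at 7.89 in pool 1 and 7.82 in pool 2, against 8.61 in tumour 1 and 8.80 in tumour 2. Both tumours exceeded both pools, by at least 0.72. The log2 fold change was 0.85 (SE 0.11, 95% interval 0.56 to 1.13, adjusted p 0.0113). The call was lost without pool 1 (0.88, adjusted p 0.064) and without pool 2 (0.81, 0.0811). Its partner Cbfb, which encodes the subunit that stabilises RUNX factors on DNA, stood at 0.29 (SE 0.13, adjusted p 0.204), and Runx3 at 0.11.

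**Figure D2:**
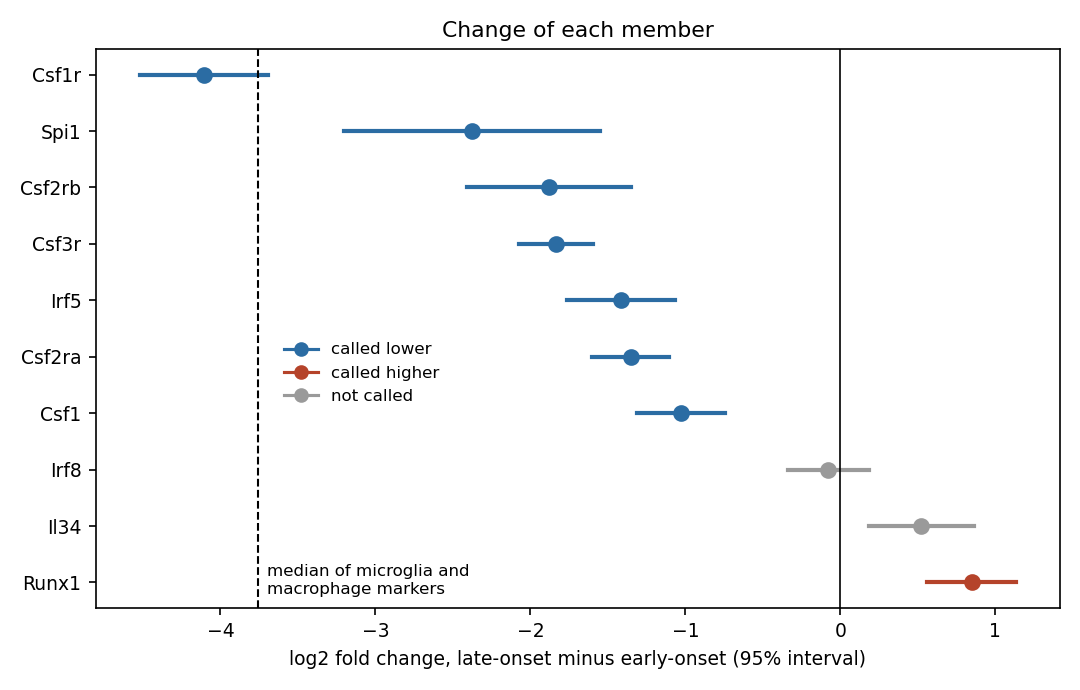
Log2 fold change of each member, late-onset minus early-onset, with its 95% interval from limma, and a dashed line at the median of the microglia and macrophage markers (-3.76). Csf1r (-4.11) is the one member beyond that line, and Runx1 (0.85) lies at the other end.

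The microglia and macrophage markers lay lower in the late-onset tumours. All 21 measured had negative log2 fold changes, from -4.70 to -0.93 with a median of -3.76, and 20 were called lower. Each kept its direction under 14 alternative settings, but some calls were lost without either pool. The summed linear level of the 21 was 41882 to 49071 in the pools and 3331 to 5019 in the tumours. These marker genes were thus read in RNA of the EGFP-positive sort, and which cells carried them was not measured. The chemokine receptor gene Cx3cr1 stood at -3.99, the integrin gene Itgam at -4.23 and the leukocyte phosphatase gene Ptprc at -3.30. Set against the median of -3.76, Csf1r fell 0.35 further, Spi1 fell 1.38 less, and Csf1 fell 2.73 less. Csf2rb, Csf3r, Irf5 and Csf2ra fell less by 1.88, 1.93, 2.35 and 2.41. RMA compresses the fold of dim genes, and the tumour mean of Spi1 (5.46) was near the lower quartile of all genes (5.52). The tumour means of Csf2rb (5.88) and Csf3r (5.95) lay not far above that quartile. How far level shaped these differences was not tested. In RNA from many sorted cells, fewer cells of a type and less RNA per cell cannot be told apart. The part of these markers in the members' changes was not tested.

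None of the markers of other blood cells passed the limma test, among 5 monocyte, 7 dendritic cell, 6 mast cell, 8 T and NK cell and 4 B cell markers. At an unadjusted p under 0.05 there were 2 monocyte and 1 B cell marker and none of the others. Leaving out pool 1 or pool 2 gave 1 monocyte marker called lower, Ace without pool 1 and Treml4 without pool 2, both named after their values were seen. Their median log2 fold changes were -0.39, -0.08, -0.02, 0.07 and -0.14 in that order. Their summed linear levels in the pools and the tumours were 278 to 290 and 154 to 169 for monocytes, and 352 to 370 and 330 to 372 for dendritic cells. For mast cells they were 176 to 179 and 174 to 176, for T and NK cells 275 to 283 and 281 to 298, and for B cells 178 to 203 and 157 to 170. Such a sum leans on its brightest genes, for monocytes Ace and Treml4. Ace stood at 6.68 in pool 1 and 7.50 in pool 2, and Treml4 at 6.997 and 5.81. Ccr2, Plac8 and Chil3 lay between 3.60 and 4.19 on every array, with log2 fold changes of -0.39, -0.06 and 0.06. The monocyte sums thus do not show a fall shared by the list. Below the lower quartile of all genes (5.52) on every array lay 3 monocyte, 3 dendritic cell and 4 mast cell markers. The same held for 6 T and NK cell and 2 B cell markers. A fall from so low a level is hard to see, so these lists do not show that such cells were unchanged. The T cell gene Cd3e, which lay above that quartile, was at 5.87 to 6.11 on the 4 arrays.

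Defining genes of glial progenitors were read on every array. Olig2 lay between 11.89 and 12.12 and Sox10 between 11.49 and 11.52. Pdgfra stood at 13.63 and 13.72 in the pools and at 13.24 and 13.20 in the tumours. Its log2 fold change was -0.45 (limma adjusted p 0.041). Of 7 glial progenitor markers 2, Pdgfra among them, were called lower, at a list median of -0.19, and none was called higher. That count was 1 without tumour 1 and 0 without pool 1, pool 2 or tumour 2. Of 5 astrocyte markers 2 were called lower (list median -1.25), and of 7 endothelial markers none was called by limma in either direction or had an unadjusted p under 0.05. The astrocyte count was 1 without pool 1 or pool 2, 2 without tumour 1 and 4 without tumour 2. Without tumour 2, 1 endothelial marker was called lower, Kdr, named after its value was seen.

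Tumour 2 lay above tumour 1 in Spi1 and Csf1r and in markers of several cell types. Of the 21 microglia and macrophage markers 16 were higher in tumour 2, and the median difference over the list was 0.39 log2 units. All 7 endothelial and all 5 astrocyte markers were higher there too, with median differences of 1.07 and 0.65. For the neuron markers it was 3 of 5, at a median of 0.50. Tumour 2 exceeded tumour 1 by 0.98 in Spi1 and by 0.42 in Csf1r. The difference was 0.20 in Csf2rb, 0.19 in Runx1, 0.14 in Irf8, 0.11 in Csf1 and 0.03 in Csf3r. It was -0.02 in Csf2ra, -0.10 in Irf5 and -0.24 in Il34. With 1 sample on each side, these differences carry no test.

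**Figure D3:**
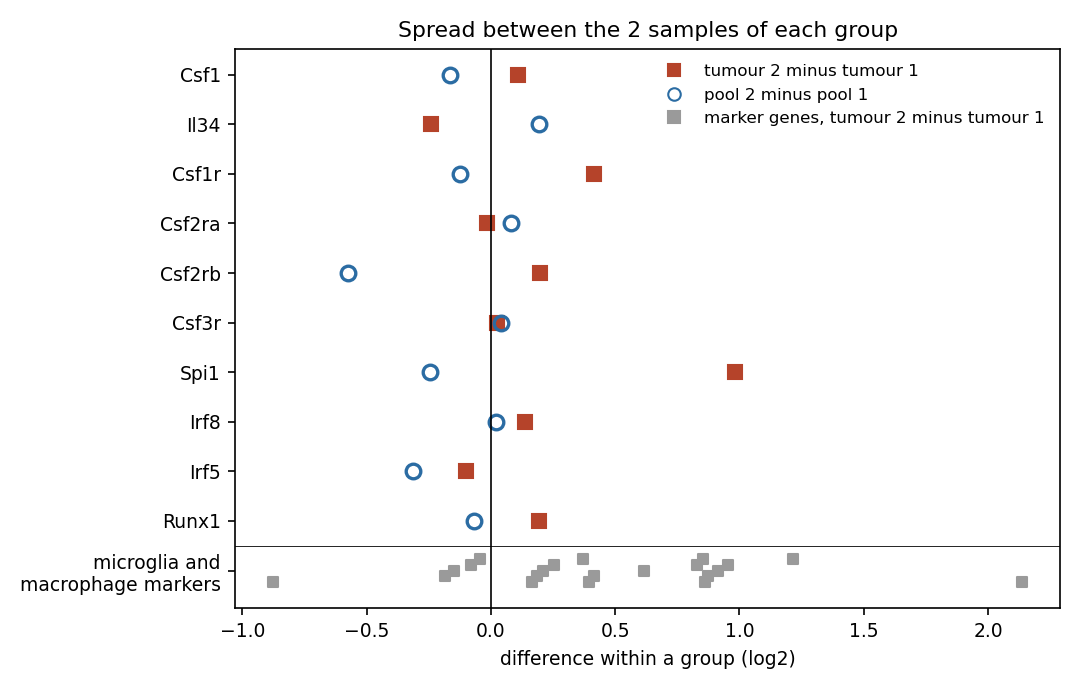
Difference between the 2 samples of each group in log2 units: filled squares are tumour 2 minus tumour 1 and open circles pool 2 minus pool 1 for each member, and grey squares the 21 microglia and macrophage markers in the tumours. Spi1 (0.98) and Csf1r (0.42) lie furthest to the right among the members, and most marker genes also lie to the right of 0.

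Of 19 genes that act downstream of CSF1R and related receptors, 8 were called lower and 1 higher, at a median log2 fold change of -0.49. Tyrobp, which encodes the adaptor DAP12 of myeloid receptors, fell by 3.77 (SE 0.28, adjusted p 0.00317), from 10.43 and 10.08 in the pools to 6.10 and 6.87 in the tumours. The lipid phosphatase gene Inpp5d (-3.43), the exchange factor gene Vav1 (-3.05) and the PI3K adaptor gene Pik3ap1 (-2.35) also fell. All 4 were called whichever sample was left out. The kinase genes Syk (-0.86, adjusted p 0.159) and Fgr (-0.85, 0.109) and the phospholipase gene Plcg2 (-1.29, 0.0636) did not pass. Nor did Grb2 (-0.34, 0.133), Stat3 (0.01, 0.964) and Cbl (0.20, 0.357). Over 14 alternative settings of the fit, Syk ranged from -1.24 to -0.47, Fgr from -1.28 to -0.43 and Plcg2 from -1.76 to -0.82. Each of Syk, Fgr and Plcg2 was called under 1 of these settings. The transcription factor gene Stat5b fell by 0.49 (adjusted p 0.0371), a call lost when any 1 sample was left out (0.0534 to 0.19). These 7 genes were chosen after their values were seen. The feedback inhibitor gene Socs3, also named after its value was seen, was the one that rose, by 0.56 (adjusted p 0.0287). Its call was lost without pool 1 (0.152), pool 2 (0.144) or tumour 2 (0.078).

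The other cytokines and receptors of this family mostly did not pass. Of 13 genes, 2 were called lower and 1 higher, at a median log2 fold change of -0.05. Sdc1, which encodes the proteoglycan syndecan and is an alternative binding partner of IL34, rose by 1.78 (SE 0.14, adjusted p 0.00372). Its values were 7.77 and 7.55 in the pools and 9.30 and 9.59 in the tumours, with a gap far wider than the spread within groups. Ptprz1, another reported receptor of IL34 and a gene of glial progenitors, stood at -0.44 (adjusted p 0.0721) and was named after its value was seen. Of 14 alternative settings, 2 called Ptprz1 lower, eBayes with a variance trend and cyclic loess. Flt3l, the ligand gene of the FLT3 receptor, fell by 0.58 (adjusted p 0.0492), and Csf2rb2 was the other fall. The Flt3l call held under only 3 of the 14 settings and was lost, among others, when any 1 sample was left out. Its log2 fold change over these settings was -0.73 to -0.42.

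Myeloid transcription factors moved both ways. Of 23 genes, 7 were called lower and 3 higher, at a median log2 fold change of -0.16. Cebpa, a factor of granulocyte and macrophage progenitors, fell by 1.54 (SE 0.30, adjusted p 0.0296), the microglial factor gene Mef2c by 1.53 (0.00618) and the lymphoid and myeloid factor gene Ikzf1 by 1.24 (0.00565). Egr2, an early response factor, rose by 1.24 (adjusted p 0.0206), and the others that rose were Bhlhe40 (1.03) and Cebpd (0.84), named after their values were seen. Calls were lost without pool 1 for Cebpa (adjusted p 0.104), Egr2 (0.0918) and Cebpd (0.0544). Without pool 2 they were lost for Cebpa (0.153), Egr2 (0.116), Cebpd (0.0659) and Bhlhe40 (0.0941). The count of falls was 2 without pool 1 and 3 without pool 2.

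Relatives of the member factors were mostly not called. Of 19 genes of the IRF, RUNX and ETS families and their partners, 3 were called lower and 2 higher, at a median log2 fold change of -0.15. None of the 6 other IRF genes was called by limma, from Irf7 at -0.46 (adjusted p 0.139) to Irf1 at 0.15 (0.384), chosen after their values were seen. At an unadjusted p under 0.05 there were 3 of the 6. Fli1, an ETS factor gene of blood and endothelium, fell by 1.66 (SE 0.22, adjusted p 0.0109), Runx1t1 by 1.03 (0.0345) and Elf4, named after its value was seen, by 0.53 (0.0264). Erg, a close relative of Fli1, rose by 1.58 (SE 0.11, adjusted p 0.00263), from 6.45 and 6.53 in the pools to 8.14 and 8.003 in the tumours. Etv6 rose by 0.66 (adjusted p 0.0488).

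Of these 5 calls, only that of Erg held whichever sample was left out. Without pool 1 or pool 2 none of the 3 falls was called (Fli1 0.0635 and 0.0502, Runx1t1 0.16 and 0.107, Elf4 0.142 and 0.15). Without tumour 1 the Elf4 call was lost (0.0673), and without tumour 2 those of Runx1t1 (0.0567) and Elf4 (0.0519). The Etv6 call was lost without pool 1 (0.123), pool 2 (0.236) or tumour 2 (0.113). Erg and Fli1 are also active in endothelium, whose 7 markers had a summed linear level of 564 to 969 in the pools and 455 to 880 in the tumours, and their part was not tested.

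**Figure D4:**
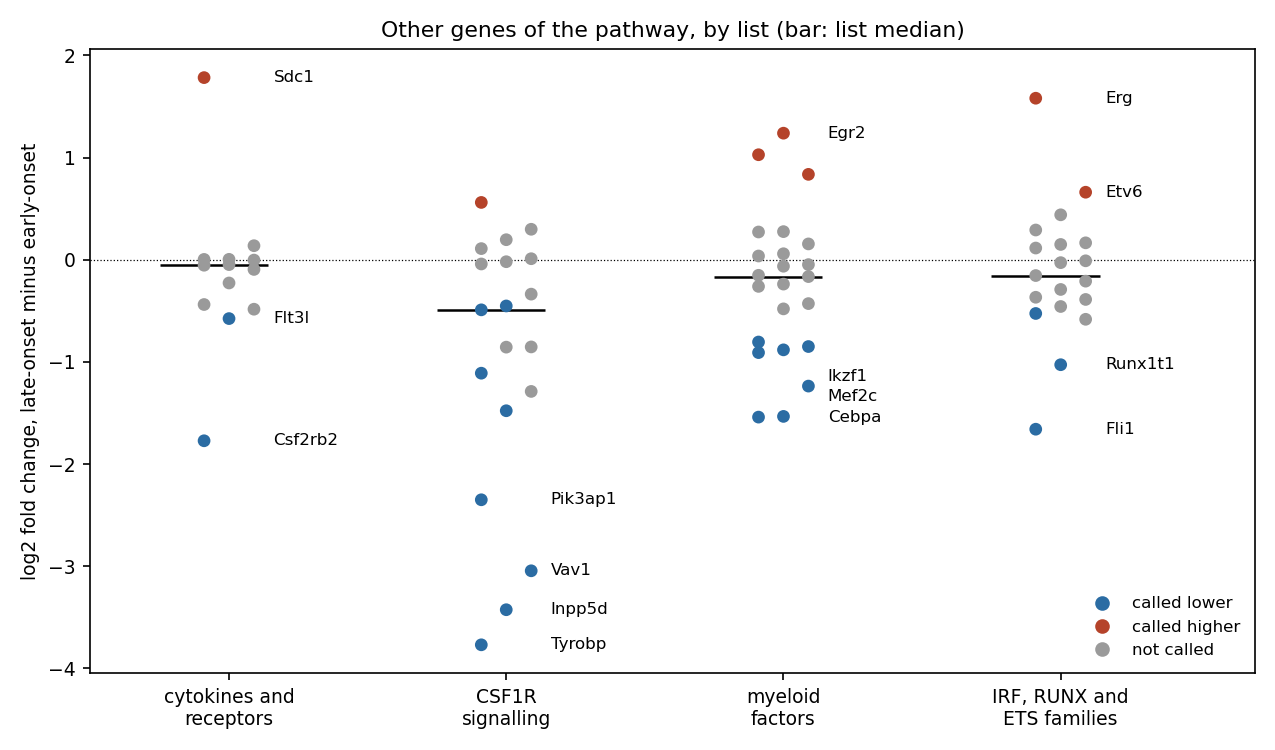
Log2 fold change of the other genes of the pathway in 4 lists, 1 point per gene, coloured by the limma call, with a bar at each list's median and names for the genes with the largest called changes. The signalling list reaches furthest down, to Tyrobp (-3.77), and Sdc1 (1.78) and Erg (1.58) lie highest.

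Patterns over the 4 arrays were compared by the Euclidean distance between values centred on each gene's mean. Predicted genes were passed over when the nearest genes were sought. Values were not scaled, so with 2 samples per group the distance largely reflects how alike 2 log2 fold changes are in size. The genes nearest to Csf1r were Cx3cr1 (0.17 log2 units), Pcdh20 (0.23) and C1qb (0.29). Those nearest to Spi1 were Abca1 (0.07), P2ry6 (0.20) and Pla2g7 (0.20). Irf5 lay nearest to Ptpn6 (0.08), and Csf3r to Ptprr (0.07). Runx1 lay nearest to Rfc3 (0.03), Rnf19a (0.04) and Qsox2 (0.05). Among the members themselves Spi1 was 0.78 from Csf2rb and 0.89 from Csf3r, and 1.78 from Csf1r. The last distance goes with the unlike log2 fold changes of Spi1 (-2.38) and Csf1r (-4.11), and does not show that their patterns differ in shape.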

How the data were processed

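EGFP-positive cells sorted from gliomas were measured on 4 arrays. The authors deposited log2 probe set values, and RMA and affy version 3.4.2 are named per the submitters' processing notes, with no parameters. RMA compresses the fold of dim genes and hides a change shared by most genes. The 34760 probe sets had array medians of 6.63 to 6.71, and the pools correlated at 0.992, the tumours at 0.988 and samples of different groups at 0.972 to 0.974. Symbols came from the platform annotation. Single-symbol probe sets (21640) gave 19937 genes, each kept as its brightest probe set. Those with several symbols (1321) or none (11799) were left out, and 11 genes of the 4 pathway and 11 marker lists were not analysed here.

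Late-onset minus early-onset was fitted by lmFit and eBayes of limma 3.58.1 (R 4.3.3), with Benjamini-Hochberg adjustment over all genes and a threshold of 0.05. The fit had 2 residual and 3.27 prior degrees of freedom. The labels call the samples biological replicates, 2 per group, and that number limits the precision. Alternatives covered the variance model, scaling, a filter on dim genes, the probe set rule, array weights, a replicate block, all probe sets and each sample left out. With 1 sample left in a group, that sample was assumed to vary like the other group. The procedure was tested on simulated data. There, 55.1% of genes given a log2 change of 1 were recovered, 96.6% at a change of 2 and 99.6% at 4. Of the calls, 5.01% to 5.97% were false, a share near the threshold because the noise followed the assumptions of the fit. In the data 2931 genes were called, far more than were changed in the simulation, so the recovered shares need not hold there.

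The members and lists were chosen with earlier results of these data known. Named genes were the members, up to 4 called genes of each pathway list by absolute log2 fold change, the 3 nearest patterns of each member, Csf2rb2, Cbfb and fixed markers. Motifs were sought in the RefSeq promoter table.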

Additional observations from a re-analysis of the deposited data

How the results depend on the processing

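Of 140 values recomputed for the 10 members under 14 alternatives, 140 kept their direction and 133 their side of the threshold. The 7 others were the calls of Spi1 and Runx1 lost without either pool and the Il34 call gained under 3 scalings. With 1 sample left out, the members called lower numbered 6 to 7 and those called higher 0 to 1, and the members' median log2 fold change was -1.44 to -1.33. Members called higher numbered 2 after quantile normalization, cyclic loess and median subtraction.

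For the other lists, cytokines and receptors called lower numbered 1 after quantile normalization, median subtraction, array weights, the replicate block and the fit of all probe sets, and 1 to 2 with 1 sample left out. Signalling genes called higher numbered 0 under the replicate block and with all probe sets, and 0 to 1 with 1 sample left out. Myeloid factors called lower and higher numbered 3 and 1 with all probe sets, and 2 to 7 and 0 to 3 with 1 sample left out. IRF, RUNX and ETS genes called lower numbered 1 with all probe sets and 0 to 2 with 1 sample left out. Those called higher numbered 1 after quantile normalization, cyclic loess, the replicate block and with all probe sets, and 1 to 2 with 1 sample left out. The cause was not tested.

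Over all genes, 2931 were called, against 1833 under the replicate block, 1681 with all probe sets, 943 without pool 1 and 850 without pool 2. Deviations from the group means correlated at r = -0.04 between samples of the same replicate number. With 2 samples per group both numbers give this same value, and it does not show whether such samples were handled together. The replicate block changed no call of a member. No detection calls were used, so signal over background was not judged.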

Other observations

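Nearest patterns of the other members were also listed by the same distance over the 4 arrays. Csf1 lay nearest to Hfe (0.04 log2 units, itself at a log2 fold change of -1.02), Il34 to Bahcc1 (0.04, at 0.56, adjusted p 0.0573 by limma), Csf2ra to Trnp1 (0.03, at -1.36) and Irf8 to Gbp8 (0.01, at -0.07). After Csf2rb2, the genes nearest to Csf2rb were Cmklr1 (0.17, at -1.91) and Sla (0.17, at -1.88).

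Genes above the median level on the chromosomes that carry the members had median log2 fold changes of 0.00 to 0.08 between groups, and the members' own changes were far from these medians except for Irf8.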
